A study of Mus musculus with 15 samples.

Results

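Phlda1, Phlda2 and Phlda3 are the 3 genes of the pleckstrin homology-like domain family A, whose proteins each hold a single pleckstrin homology (PH) domain. They were followed across mouse embryonic chondrocytes treated with inhibitors. All probe sets that the platform annotation gives to these symbols were taken. Each gene had 1 probe set, so the members were 3 of the 18194 genes with a probe set of their own on the array. All 3 passed the filter on low signal, a group mean of at least 50 in at least 1 of the 5 groups.

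RNA came from primary monolayer cultures of cartilage cells of CD1 mice at embryonic day 15.5. The labels name tibiae, femurs and humeri as the bones taken. Each group had 3 arrays: LY294002, an inhibitor of PI3K, at 10 µM; UO126, an inhibitor of MEK, at 10 µM; SB202190, best known as an inhibitor of p38, although the series text lists it with UO126 under MEK/ERK, at 10 µM; TSA (trichostatin A), an inhibitor of histone deacetylases; and DMSO, the vehicle. All groups, the vehicle included, were kept for 24 h in medium with ascorbic acid and β-glycerophosphate. Signal is the linear MAS5 value of a probe set, scaled by the authors so that the trimmed mean of each array is 150. The 3 arrays of a group are labelled as biological replicates.

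PH domains bind phosphoinositides, the membrane lipids that PI3K phosphorylates and through which the kinase Akt is drawn to the membrane. PHLDA3, a p53 target in human and mouse cells, competes with Akt for these lipids. PHLDA2 is an imprinted gene expressed from the maternal copy, and in mice it restrains growth of the placenta. PHLDA1, also called TDAG51, is known as an early-response gene induced by growth factor and ERK signalling in several cell types.

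To show where transcription of the members begins, the windows from 250 bases before to 50 bases after the RefSeq start (GRCm38.p6, 300 bases each) are given for Phlda2 and Phlda3. The capitals mark, on either strand, the TATA box (letters TATAAA), the CCAAT box and the GC box (letters GGGCGG). The Phlda2 window is chr7:143502475-143502774, minus strand, and the Phlda3 window is chr1:135765835-135766134, plus strand. Phlda1 lies on chromosome 10.
Phlda2: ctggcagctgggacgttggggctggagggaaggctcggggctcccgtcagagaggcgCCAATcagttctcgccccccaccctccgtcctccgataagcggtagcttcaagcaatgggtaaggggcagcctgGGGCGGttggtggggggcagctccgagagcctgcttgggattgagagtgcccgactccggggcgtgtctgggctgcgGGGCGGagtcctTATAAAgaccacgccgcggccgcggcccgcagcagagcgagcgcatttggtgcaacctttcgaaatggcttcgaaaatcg
Phlda3: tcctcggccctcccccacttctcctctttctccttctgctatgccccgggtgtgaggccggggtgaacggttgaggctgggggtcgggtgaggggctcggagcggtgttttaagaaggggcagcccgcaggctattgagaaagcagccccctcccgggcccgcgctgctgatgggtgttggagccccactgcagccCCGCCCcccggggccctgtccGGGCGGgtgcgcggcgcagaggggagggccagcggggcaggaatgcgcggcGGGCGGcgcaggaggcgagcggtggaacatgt
The Phlda2 window held 1 TATA box, with its first base 30 bases before the start, 1 CCAAT box and 2 GC boxes. The Phlda3 window held 3 GC boxes and neither of the other motifs. Of the 32851 windows of this length, 13.6% held a TATA box, 37.4% a CCAAT box and 35.7% a GC box. On neither strand did these windows hold the AP-1 motif TGACTCA (in 5.2% of all windows), the ETS motif CCGGAAG (8.86%), the FoxO motif TGTTTAC (3.65%) or the CRE motif TGACGTCA (1.79%). The GC content was 65.7% for Phlda2 and 71.7% for Phlda3, beside a median of 52.7% over all windows.

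The 3 genes had different profiles over the groups. Phlda2 signal fell with LY294002 and TSA, Phlda1 signal rose with TSA and fell with UO126, and Phlda3 passed the threshold in no comparison of the fit without a replicate block. With the array number as a block, Phlda3 was called lower with LY294002 and TSA. Tests were made with limma on log2 signal over all 15 arrays, with Benjamini-Hochberg adjustment over 21765 probe sets and a threshold of adjusted p 0.05. On that scale 4.45% of probe sets were called higher and 3.33% lower with LY294002. With UO126 the shares were 1.36% and 1.32%, with SB202190 1.53% and 1.31%, and with TSA 28.1% and 26.6%. Most probe sets were called with TSA. With each array centred on its median, log2 values shifted by 0.127 with LY294002, and the share of its calls that were higher was 85.6%, against 57.2% without centring.

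The arrays of a group correlated at 0.967 to 0.981 in log2 signal, and TSA arrays correlated with those of other groups at 0.836 to 0.866. Chondrocyte markers were all tested. None of the 8 was called with LY294002, UO126 or SB202190, and 7 of 8 fell with TSA, Col2a1 being the exception. Their summed signal was 13610 to 15550 on TSA arrays, against 19640 to 29800 on DMSO arrays. All 5 skeletal muscle markers also fell with TSA, to a summed signal of 172 to 217, against 472 to 980 with DMSO. Of the fibroblast markers 3 of 5 fell and 1 rose with TSA, and of the 4 macrophage markers tested 3 fell and 1 rose. Over all genes tested, 28.4% were called lower and 30.6% higher with TSA. With LY294002 the adipocyte markers Fabp4 and Pparg, the only 2 tested of the 4 on the list, fell, beside 3.84% of all genes lower. Their summed signal was 248 to 536, against 657 to 699 with DMSO. Among the endothelial markers only Kdr was tested, and none of the erythroid markers was. Fewer cells of a type and less RNA per cell cannot be told apart in these cultures, and the part of these shifts in the Phlda values was not tested.

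**Figure D1:**
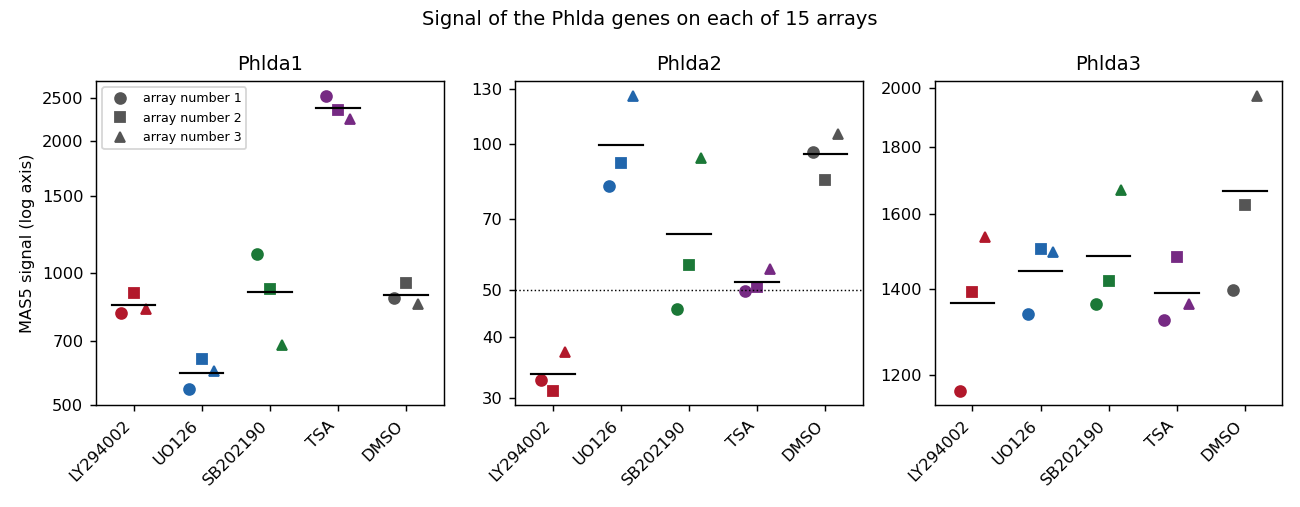
MAS5 signal (log axes) of Phlda1, Phlda2 and Phlda3 on each of the 15 arrays, with the treatments from left to right and DMSO last. Symbols stand for the array number and horizontal lines for group means, and the dotted line marks a signal of 50. The Phlda2 signals with LY294002 lie between 31.0 and 37.3 and those with DMSO between 84.5 and 105, while Phlda1 stands highest with TSA, at 2246 to 2536.

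Phlda2 had signals of 32.7, 31.0 and 37.3 on the LY294002 arrays, against 96.3, 84.5 and 105 on the DMSO arrays. All 3 LY294002 arrays were below all 3 DMSO arrays, with means of 33.7 ± 3.24 and 95.3 ± 10.4 (SD, n = 3 each). How many of all probe sets showed such a separation was not counted, here or in the comparisons below. The log2 difference was -1.50 with an SE of 0.23 (limma adjusted p = 0.00183), the 50th largest fall among 21765 probe sets. Against the DMSO array of the same number the differences were -1.56, -1.44 and -1.50. The study picked this gene partly on these LY294002 and DMSO arrays, so its fall here is given as a description and is not independent evidence. The same holds for the other Phlda2 comparisons below that use these arrays. The study reported a larger fall from its arrays, and also a fall by real-time PCR. The LY294002 signals were near the array medians of 29.8 to 39.96, and with signals under 50 set to 50 the difference was -0.92. Without the 5 arrays numbered 2 it was -1.53 and missed the threshold (adjusted p = 0.0894).

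On the TSA arrays Phlda2 signals were 49.8, 50.7 and 55.2, below every DMSO array, with a mean of 51.9 ± 2.91. The log2 difference of -0.87 (SE 0.23) passed the threshold at a limma adjusted p of 0.00499. This fall ranked 2416th among those of 21765 probe sets, of which 26.6% were called lower with TSA. With UO126 the signals were 82.1, 91.4 and 126, which overlapped those with DMSO, and the difference was 0.05 with a 95% interval of -0.45 to 0.54. The sign of that value turned when arrays were left out. With SB202190 the signals were 45.8, 56.5 and 93.6, a mean of 65.3 ± 25.1, and array 3 lay within the range of DMSO. This difference, -0.61 with an interval of -1.10 to -0.11, missed the threshold after adjustment (limma adjusted p = 0.203). Without SB202190 array 3 it was -0.90 (adjusted p = 0.0445). Array number 3 held the highest Phlda2 signal in all 5 groups.

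The study picked Phlda2 partly on the LY294002 arrays, so its comparisons of LY294002 with other inhibitors are not independent evidence. Between inhibitors, Phlda2 differed most in LY294002 against UO126, with a log2 difference of -1.55 (limma adjusted p = 0.00127). In that comparison 6.61% of probe sets were called. With signals under 50 set to 50 the difference was -0.97, and without the 5 arrays numbered 2 the call was lost (-1.54, adjusted p = 0.0847). In UO126 against TSA the difference was 0.92 (adjusted p = 0.00346), beside 55.1% of probe sets called. In LY294002 against SB202190 it was -0.89 (adjusted p = 0.0336), with 6.09% called, and in LY294002 against TSA -0.63 (adjusted p = 0.0335), with 53.4% called. These last calls were lost in many alternatives. For LY294002 against TSA, raising signals under 50 to 50 left a difference of -0.05 (adjusted p = 0.852), and leaving out LY294002 array 1 or 2, or any TSA array, raised the adjusted p to between 0.0577 and 0.0921. For LY294002 against SB202190, leaving out any LY294002 array, or SB202190 array 2 or 3, raised it to between 0.0589 and 0.144. The intervals were 0.16 to 1.15 for UO126 against SB202190 (adjusted p = 0.106, and 0.0141 without SB202190 array 3) and -0.23 to 0.76 for SB202190 against TSA. With the array number as a block, the UO126 against SB202190 difference was called. The order of the means was UO126, DMSO, SB202190, TSA and LY294002, and of these neighbours only TSA and LY294002 differed past the threshold.

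Phlda1 signals were 2536, 2355 and 2246 on the TSA arrays, against 877, 951 and 853 on the DMSO arrays. Every TSA array was above every DMSO array, with means of 2379 ± 146 and 894 ± 51.2 (SD, n = 3 each). The log2 difference was 1.41 with an SE of 0.13, a 2.66-fold rise (95% interval 2.20 to 3.23, limma adjusted p = 2.59e-07). It ranked 1143rd among the rises of 21765 probe sets, of which 28.1% were called higher with TSA. The difference stayed between 1.35 and 1.46 and past the threshold in all 28 alternatives that gave it a value.

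With UO126 the Phlda1 signals were 544, 636 and 600, a mean of 594 ± 46.2, and all lay below the DMSO arrays. The log2 difference was -0.59 (SE 0.13), a 1.51-fold fall with a limma adjusted p of 0.0225. The difference from the same-numbered DMSO array was -0.69, -0.58 and -0.51. The call was lost, with differences of -0.60 to -0.53, when DMSO array 1 or 2 or UO126 array 1 or 3 was left out (adjusted p = 0.053, 0.0912, 0.0854 and 0.0684). Over all alternatives the adjusted p ran between 0.00259 and 0.326.

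With LY294002 the Phlda1 signals of 812, 903 and 828 overlapped those with DMSO. The log2 difference was -0.08, with a 95% interval of -0.35 to 0.20 (limma adjusted p = 0.775), and with arrays centred on the median it was 0.05. With SB202190 the signals were 1107, 922 and 685, which lay both above and below the DMSO arrays. The mean difference was -0.01 (interval -0.29 to 0.27, adjusted p = 0.989) and had no settled sign over the alternatives. Of the 5 groups SB202190 had the widest spread of Phlda1 signal, with an SD of 212. On those 3 arrays the order of Phlda1 signals was the reverse of that of Phlda2, whose lowest value was on array 1 and highest on array 3.

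Between inhibitors, the TSA arrays were above all others in Phlda1 signal. The log2 difference was -1.49 for LY294002 against TSA, -2.004 for UO126 against TSA and -1.42 for SB202190 against TSA, each with a limma adjusted p of at most 2.84e-07. In the last of these 52.5% of probe sets were called. For UO126 against SB202190 it was -0.58 (adjusted p = 0.0107), in a comparison with 8.19% of probe sets called. For LY294002 against UO126 it was 0.52 (adjusted p = 0.0272). Leaving out SB202190 array 1 raised the first p to 0.0561 (difference -0.42), and leaving out any LY294002 array, or UO126 array 1 or 3, raised the second to between 0.0591 and 0.0982. For LY294002 against SB202190 the interval was -0.35 to 0.21. In the order of the means, TSA, SB202190, DMSO, LY294002 and UO126, the 3 groups in the middle did not differ past the threshold from each other.

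**Figure D2:**
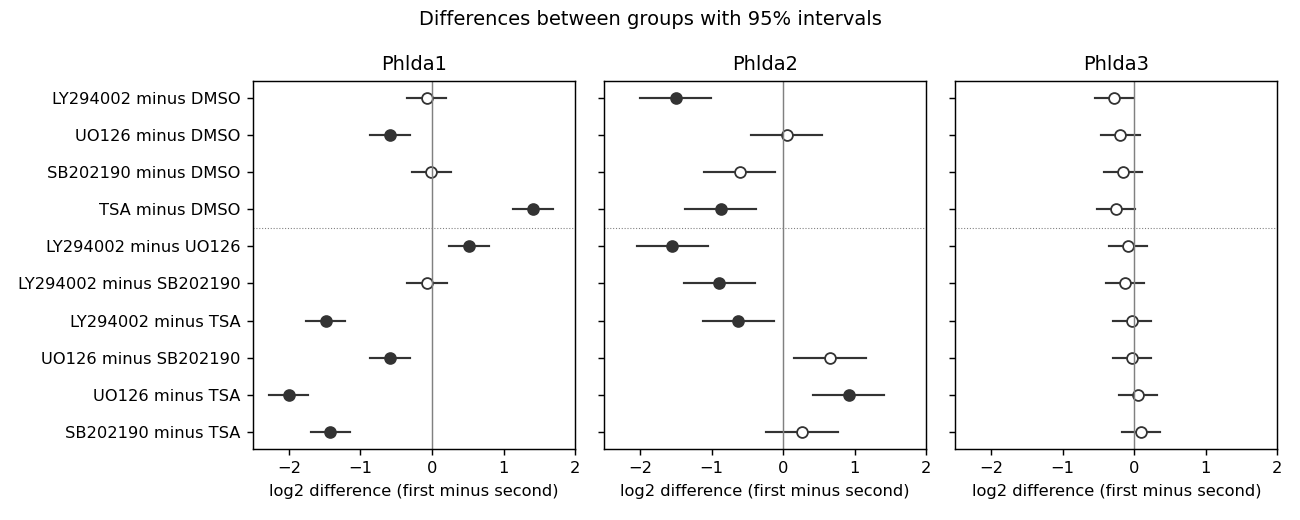
Log2 difference (first group minus second, points) with its 95% interval (lines) for the 3 genes in 10 comparisons, those with DMSO above the dotted line. Filled points passed an adjusted p of 0.05. Phlda1 with TSA stands at 1.41 and Phlda2 with LY294002 at -1.50, while no point of Phlda3 is filled.

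Phlda3 signals spread most within the DMSO group. They were 1167, 1391 and 1534 with LY294002, a mean of 1364 ± 185, and 1396, 1623 and 1974 with DMSO, a mean of 1665 ± 291 (SD, n = 3 each). These ranges overlapped. The means were 1445 ± 93.3 with UO126, 1483 ± 163 with SB202190 and 1389 ± 83.1 with TSA, each over a range that overlapped that of DMSO.

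The log2 differences of Phlda3 from DMSO were -0.28 with LY294002 (95% interval -0.55 to -0.01), -0.19 with UO126 (-0.46 to 0.08), -0.16 with SB202190 (-0.42 to 0.11) and -0.25 with TSA (-0.52 to 0.02). The limma adjusted p values were 0.183, 0.555, 0.599 and 0.107, in the same order. With each inhibitor the gene was lower than on the same-numbered DMSO array in 3 of 3 numbers. The LY294002 differences were -0.26, -0.22 and -0.36, and those with TSA were -0.08, -0.13 and -0.54. All 4 inhibitors share the same 3 DMSO arrays, so these directions are not independent. The SB202190 and TSA numbers were not taken as pairs with those of DMSO, since their same-numbered correlations, though positive, did not all exceed 0.1. How many of all probe sets show such directions was not counted. Array number 1 held the lowest Phlda3 signal in all 5 groups. The array numbers paired the LY294002 and DMSO arrays, and with the number as a block the LY294002 difference passed the threshold (adjusted p = 0.0447). With that block the TSA difference was called too, though its numbers were not taken as pairs. Without the block, and with DMSO array 1 left out, the TSA difference was -0.37 (adjusted p = 0.0221). None of the 6 comparisons between inhibitors passed the threshold for Phlda3, with log2 differences of -0.12 to 0.09. Their intervals all lay within -0.39 to 0.36.

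**Figure D3:**
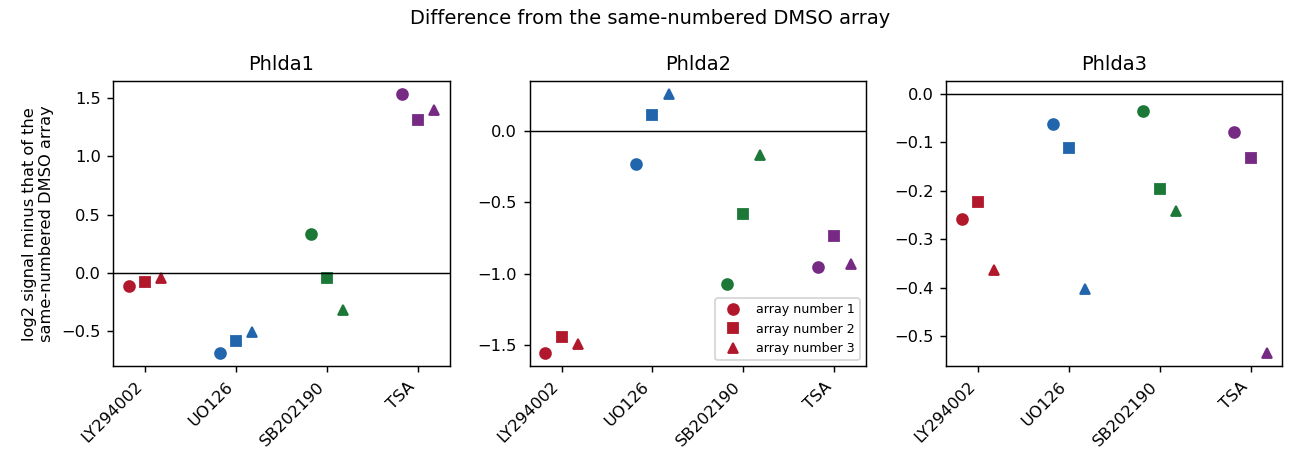
Log2 signal on each treated array minus that on the DMSO array of the same number, for the 3 genes. Colours stand for the treatments and symbols for the array number, and each panel has its own vertical axis. All Phlda3 points lie below 0, from -0.54 to -0.04, and the SB202190 points of Phlda1 lie on both sides of 0.

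The log2 signals of Phlda1 and Phlda2 correlated at r = -0.39 over 15 arrays, those of Phlda1 and Phlda3 at -0.20, and those of Phlda2 and Phlda3 at 0.57. Without the TSA arrays these values were -0.48, 0.00 and 0.56. They are descriptions over arrays that share treatments and array numbers.

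The genes with the profile most like each member were found by Pearson r of log2 signal among 11748 genes. For Phlda1 over 15 arrays these were Nek7, a kinase of the NLRP3 inflammasome (r = 0.98), Sat1, the polyamine acetyltransferase (0.98), and H2-Ke6 (0.98). Sat1 signal averaged 3660 ± 301 with TSA and 802 ± 51 with DMSO. Over the 12 arrays without TSA the first was Ereg, the EGF receptor ligand epiregulin (r = 0.91), then Nek7 (0.90) and the homeobox gene Irx3 (0.89). Ereg averaged 174 ± 21.6 with UO126 and 400 ± 25.9 with DMSO.

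For Phlda2 over 15 arrays the nearest were Rhbdl2, a rhomboid protease (r = 0.92), Ppfibp2, a liprin (0.91), and Eif4e2, a cap-binding protein (0.90). Rhbdl2 signal averaged 44.1 ± 12.4 with LY294002 and 120 ± 18.8 with DMSO. Without TSA they were Cib1, a calcium- and integrin-binding protein (0.96), Yars2, the mitochondrial tyrosyl-tRNA synthetase (0.94), and Rhbdl2 (0.94). For Phlda3 the nearest were Gltp, a glycolipid transfer protein (0.88), Phgdh, the first enzyme of serine synthesis (0.86), and Ccdc22 (0.85), and without TSA Kif18b, a mitotic kinesin (0.96), Phgdh (0.93) and Pdf, a mitochondrial deformylase (0.92). These were the highest values among all genes compared and carry no test.

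Over all 11751 genes tested, 5.63% were called higher and 3.84% lower with LY294002, 1.88% and 1.57% with UO126, 2.01% and 1.51% with SB202190, and 30.6% and 28.4% with TSA. The median log2 difference of all genes was 0.01, 0.01, 0.03 and 0.00 in the same order. Genes were counted if called, and those named below are the ones with the smallest p unless stated.

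Genes of ERK output, which include negative regulators and transcription factors that MEK and ERK signalling induces, were set beside Phlda1. With UO126, 4 of 17 tested fell and none rose, beside 1.57% of all genes lower, and the median log2 difference was -0.24, against 0.01 over all genes. Fosl1, an AP-1 subunit, averaged 142 ± 27.4 with UO126 and 326 ± 44.9 with DMSO. Etv5, an ETS factor, averaged 216 ± 14.7 with UO126 and 360 ± 62.2 with DMSO. Dusp4, an ERK phosphatase, averaged 12.1 ± 1.98 with UO126 and 28.0 ± 3.47 with DMSO. It reached the filter's signal of 50 only with TSA, and both values lie under the lowest array median of 29.8. Dusp6, another ERK phosphatase, also fell (log2 difference -1.03). The same 4 genes were lower with centring. With LY294002 only Fosl1 fell (log2 difference -1.32), and with SB202190 none of the 17 passed, Dusp6 averaging 582 ± 147 with SB202190 and 470 ± 34.5 with DMSO. With TSA 7 rose and 4 fell, among them Spred2 (1.09), Ccnd1 (-1.58) and Fosl1 (-1.80), beside 30.6% of genes higher and 28.4% lower. Dusp4 is among the 7, and as it passed the filter only through its TSA mean, its TSA call is no support for a rise.

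Among 17 genes of PI3K and Akt lipid signalling, to which Phlda3 is linked by its PH domain, 3 rose and 1 fell with LY294002, beside 5.63% of all genes higher and 3.84% lower, and the median log2 difference was 0.06. Gab1, a docking adaptor of receptor kinases, averaged 405 ± 19.5 with LY294002 and 299 ± 1.96 with DMSO. Irs1, the insulin receptor substrate, averaged 2076 ± 126 with LY294002 and 1502 ± 196 with DMSO. Pik3r3, a regulatory subunit of PI3K, averaged 92.8 ± 12.2 with LY294002 and 177 ± 14.8 with DMSO. The catalytic subunit gene Pik3ca also rose (0.40), a call that was lost with centring. With UO126 only Gab1 rose (0.60), and with SB202190 none passed, Pik3ca showing a log2 difference of 0.18. With TSA 8 rose and 3 fell (median 0.19), beside 30.6% of all genes higher and 28.4% lower. Those with the smallest p were Pdpk1 (1.10), Phlpp1 (0.81) and Pik3ip1 (-1.60), which encode an Akt-activating kinase, an Akt phosphatase and an inhibitor of PI3K.

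Of the 19 p53 targets tested, a list Phlda3 would belong to, 1 rose and 3 fell with LY294002, beside 5.63% of all genes higher and 3.84% lower, and the median log2 difference was -0.29. Ccng1 (cyclin G1) averaged 1950 ± 41.9 with LY294002 and 2493 ± 232 with DMSO. Zmat3, an RNA-binding zinc finger gene, had a log2 difference of -0.41 and Eda2r, a TNF receptor family member, one of -0.58. Rrm2b, a ribonucleotide reductase subunit, rose (0.40). With centring none of the 3 falls was called and the rise of Rrm2b was. With UO126 Perp, a desmosomal membrane protein, fell (-0.67), a call also lost with centring. With SB202190 none passed, and Cdkn1a, the cell-cycle inhibitor p21, averaged 1017 ± 274 with SB202190 and 1535 ± 344 with DMSO (limma adjusted p = 0.142). With TSA 7 rose and 5 fell (median 0.10), near the 30.6% of all genes higher and 28.4% lower. Those with the smallest p were Trp53inp1 (1.53), Pmaip1 (2.28) and Plk2 (1.82), and the largest change was the fall of Gtse1 (-2.96), a gene of the G2 phase named here after its value was seen.

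Phlda2 lies in an imprinted region of chromosome 7, between Slc22a18 and Nap1l4. Neither neighbour was called with LY294002. Slc22a18, an organic cation transporter gene, averaged 24.9 ± 8.83 with LY294002 and 43.6 ± 7.37 with DMSO (limma adjusted p = 0.0826), and Nap1l4, a histone chaperone, averaged 661 ± 42 with LY294002 and 656 ± 36.6 with DMSO (adjusted p = 0.962). With TSA Slc22a18 averaged 91.3 ± 15.6, against 43.6 ± 7.37 with DMSO. It passed the filter on low signal only through its TSA mean, so its TSA call is no support for a rise. Of 13 genes of the region that were tested, only Tnfrsf23, a decoy receptor, fell with LY294002 (-0.79), beside 3.84% of all genes lower, and it was not called with centring. The median log2 difference of the list was -0.10. With UO126 none passed, and Cdkn1c, the maternally expressed cell-cycle inhibitor p57, showed a log2 difference of 0.47 (adjusted p = 0.0649). With SB202190 Dhcr7, the last enzyme of cholesterol synthesis, rose (0.67) and Tnfrsf23 fell (-0.76), a fall not called with centring. With TSA 3 rose and 4 fell, Slc22a18 among the 3 (median -0.14), near the 30.6% of all genes higher and 28.4% lower. Those with the smallest p were Osbpl5 (-0.69), Dhcr7 (0.66) and Cdkn1c (-0.56).

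Of 11 genes of chondrocyte hypertrophy, the stage in which cartilage cells enlarge before bone replaces them, none was called with LY294002, where the median log2 difference was -0.01. Col10a1, the collagen of hypertrophic cartilage, averaged 553 ± 322 with LY294002 and 548 ± 441 with DMSO. With UO126 only Mef2c rose (0.57), and the median over the list was 0.57, against 0.01 over all genes. With SB202190 only Ibsp fell (-1.34), and the median was -0.56, against 0.03 over all genes. Neither call held with centring. With TSA 9 of 11 fell, beside 28.4% of all genes lower, and the median was -1.17. Those with the smallest p were Mmp13 (-2.40), Sp7 (-1.63) and Panx3 (-3.10). Of the related PHLDB genes, Phldb2 averaged 1070 ± 87.2 with LY294002 and 824 ± 91.4 with DMSO, a rise that was not called with centring, and 1362 ± 71.5 with TSA. Phldb1 was not called in any of the 4 comparisons with DMSO.

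**Figure D4:**
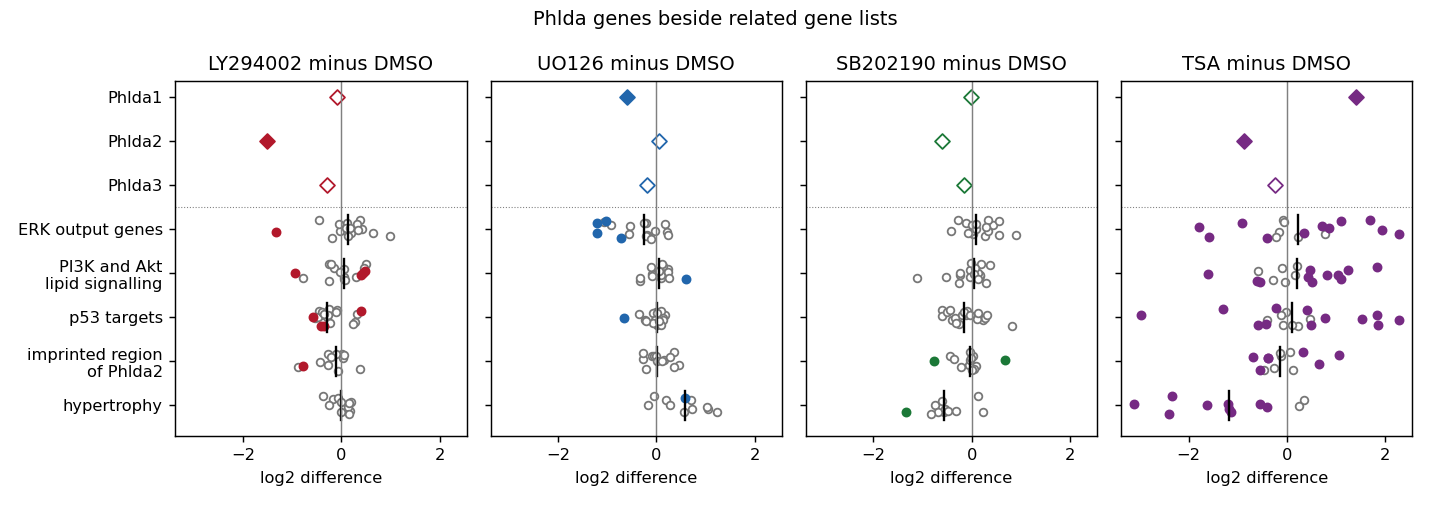
Log2 difference from DMSO with each inhibitor for the 3 Phlda genes (diamonds) and for the genes of 5 lists (circles), with filled symbols for an adjusted p under 0.05 and black lines for list medians. With UO126 the filled ERK output genes lie on the left, as does Phlda1 at -0.59. With LY294002 Phlda2, at -1.50, lies left of every gene of the imprinted region. The study picked Phlda2 partly on these arrays, and its neighbour Slc22a18, not called, lies at -0.87.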

How the data were processed

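Affymetrix MOE 430 2.0 arrays (15, in 5 groups of 3) were read as deposited: intensity values, the linear MAS5 signal that the authors produced, 1 value per probe set and array, scaled to a trimmed mean of 150 (2% left out at each end). The table holds no detection calls. Array medians were 29.8 to 39.96 and 40.92% to 44.96% of probe sets reached a signal of 50.

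Groups came from the labels. Of 45101 probe sets, 34958 carried 1 gene symbol, 932 several and 9211 none. A floor of 1 was applied before log2, 64 control probe sets were dropped, and probe sets with a mean of at least 50 in at least 1 group were kept (21765). A fit of 5 group means with limma 3.58.1 (R 4.3.3, eBayes with trend) gave 10 comparisons, and its code was tested on simulated data. P-values rest on a variance pooled over the 5 groups, each of 3 labelled biological replicates, and moderated over probe sets by eBayes. They do not measure the spread of the compared groups alone, and the main fit held no term for the array number. For lists, the probe set with the highest mean log2 signal stood for a gene, over 11751 genes. Up to 3 called genes per list and comparison with the smallest p were named, the first-listed gene where none was called, and the 3 genes most correlated with each member. The direct neighbours of Phlda2 were named by position, and Pik3ca, Rrm2b and Dusp6 after their values were seen. The members and lists were chosen with earlier results of these data known. Sequences are RefSeq's, and 2 of 3 members had a window.

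Array numbers were taken as pairs where every same-numbered r of deviations from group means exceeded 0.1: LY294002 and DMSO (0.161 to 0.425), UO126 and DMSO (0.223 to 0.419), LY294002 and UO126, and SB202190 and TSA. In the other comparisons the lowest r was between 0.024 and 0.095, and 15 of 15 arrays correlated best with their own number. Alternatives covered scaling, filters, pseudocount, floor, variance prior, groups in the fit, the replicate block and arrays left out.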

Additional observations from a re-analysis of the deposited data

How the results depend on the processing

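Over 341 values of the Phlda genes against DMSO from alternative settings, 319 kept direction and call, 8 lost the call, 5 gained one and 9 turned sign. Between inhibitors 450 of 507 did. The Phlda1 rise and the Phlda2 fall with TSA kept their calls in every alternative that gave them a value. The study picked Phlda2 partly on the same DMSO arrays, so its TSA fall is not independent evidence. The causes of the changes below were not tested.

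Centring arrays on the median gave log2 differences from DMSO for Phlda1 of 0.051 with LY294002 and 0.030 with SB202190, both turned in sign. It also turned Phlda3 for LY294002 against UO126 (0.016) and TSA (0.087) and Phlda1 for LY294002 against SB202190 (0.021), and it ended the Phlda2 calls for LY294002 against SB202190 (-0.803) and TSA (-0.506). Quantile normalization ended the same Phlda2 calls (-0.800 and -0.498), as did no filter (-0.892 and -0.627, and 0.515 for Phlda1 in LY294002 against UO126) and signals under 50 set to 50 (-0.360 and -0.054). Adding 16 to signals ended the LY294002 against TSA call (-0.452). Without the variance trend Phlda1 lost its calls for UO126 against DMSO (-0.592, adjusted p = 0.0527) and LY294002 against UO126 (0.515). With 2 groups alone, Phlda2 in LY294002 against SB202190 (-0.892) and Phlda1 in UO126 against SB202190 (-0.584) were not called, and the first was not called either without TSA in the fit (-0.892).

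With the replicate block, Phlda3 was called with LY294002 (-0.282, adjusted p = 0.0447), where the numbers were taken as pairs. It was also called with TSA (-0.249, adjusted p = 0.0233). There the same-numbered r values with DMSO were 0.096, 0.169 and 0.048, positive but not all above 0.1. Phlda2 was called in UO126 against SB202190 (0.656, adjusted p = 0.0312). The block changed no other call of a Phlda gene, and 15 of 15 arrays correlated best with their own number.

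Leaving out 1 array at a time gave ranges against DMSO for Phlda1 of -0.122 to -0.031 with LY294002, -0.643 to -0.531 with UO126 and -0.167 to 0.179 with SB202190. For Phlda2 they were -0.132 to 0.177 with UO126 and -0.901 to -0.385 with SB202190, and for Phlda3 -0.368 to -0.118 with TSA. Between inhibitors the Phlda1 ranges were 0.455 to 0.567 for LY294002 against UO126, -0.255 to 0.091 for LY294002 against SB202190 and -0.770 to -0.424 for UO126 against SB202190. Those of Phlda2 were -1.115 to -0.599 for LY294002 against SB202190, -0.703 to -0.571 for LY294002 against TSA, 0.433 to 0.949 for UO126 against SB202190 and -0.029 to 0.488 for SB202190 against TSA. Those of Phlda3 were -0.180 to 0.018 for LY294002 against UO126, -0.123 to 0.075 for LY294002 against TSA and -0.093 to 0.054 for UO126 against SB202190.

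The omission of all 5 arrays of 1 number was chosen after seeing the data. Without number 1, Phlda1 was -0.543 with UO126 against DMSO, 0.485 for LY294002 against UO126 and -0.363 for UO126 against SB202190, none called, and 0.122 for LY294002 against SB202190. Phlda2 was -1.096 and -0.637 for LY294002 against SB202190 and TSA, not called, and Phlda3 was called with TSA against DMSO (-0.334, adjusted p = 0.046) and 0.040 for LY294002 against TSA. Without number 2, the calls lost were Phlda2 with LY294002 (-1.527) and Phlda1 with UO126 (-0.597) against DMSO, Phlda1 for LY294002 against UO126 (0.521) and for UO126 against SB202190 (-0.608), and Phlda2 for LY294002 against UO126 (-1.542), SB202190 (-0.906) and TSA (-0.587), and Phlda1 with SB202190 against DMSO was 0.010. Without number 3, Phlda1 for LY294002 against UO126 (0.541) and Phlda2 for LY294002 against SB202190 (-0.674) were not called, and signs turned for Phlda2 with UO126 (-0.058) and Phlda1 with SB202190 (0.146) against DMSO and for Phlda3 in UO126 against SB202190 (0.029) and SB202190 against TSA (-0.010).

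Probe sets called against DMSO numbered 1693 with LY294002, 584 with UO126 and 619 with SB202190. In that order they were 3057, 1032 and 1224 with the block, 488, 245 and 181 with 2 groups alone, 465, 209 and 118 without number 1, 71, 78 and 33 without number 2, and 358, 211 and 193 without number 3. Leaving out 1 array gave 849 to 1908, 321 to 575 and 213 to 604. Centring gave 280 with UO126 and 210 with SB202190, and no filter 410 with SB202190.

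Phlda2 had no value with a mean of 100 over all arrays required. Averaging probe sets of a gene was not run, since each member had 1. Phlda2 signals near the array median and 3 arrays a group limit precision.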
